A study of Mus musculus with 30 samples.

Results

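The cytosolic ribosomal protein genes were taken by name from the deposited count table. They were the protein-coding genes of the GENCODE mouse annotation M21 with a symbol of the form Rpl or Rps and a number, the stalk genes Rplp0, Rplp1 and Rplp2, and Rpsa. Rpl22 was left out because it is the gene that carries the tag used to pull down ribosomes, and pseudogene names were left out. This gave 82 genes of the 55335 in the table, 50 for the large subunit and 32 for the small subunit. The choice used names alone and no measured value. A total of 81 of them passed the filter on low counts and were tested among 19368 genes, and Rpl10l had a count of 0 in all 30 libraries.

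Cytosolic ribosomes are built from ribosomal RNA and a set of small, mostly basic proteins. Large subunit proteins surround the site where peptide bonds form and the exit tunnel, and small subunit proteins surround the site where the messenger is decoded. Nearly all of their mRNAs begin with a terminal oligopyrimidine tract, a run of C and T bases at the transcription start, through which mTOR signalling and LARP1 set how many of them sit on polyribosomes. In neurons these mRNAs are abundant in the cell body and are also found in dendrites and axons.

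The study profiled polyribosome-bound RNA of the nucleus accumbens, a ventral striatal region whose output cells are medium spiny neurons (MSNs), in female mice, some of them after chronic witness defeat stress (CWDS, the repeated sight of another animal being defeated). RT stands for RiboTag. D1-Cre-RT mice carry the HA-tagged ribosomal protein in cells with Cre under the D1 dopamine receptor promoter and are labelled D1-MSN. A2A-Cre-RT mice carry it in cells with Cre under the adenosine A2A receptor promoter, are labelled A2A-MSN and are titled, and called here, D2. Each class had a Control group, a CWDS Resilient group and a CWDS Susceptible group, the stressed mice being sorted by social interaction, with 5 libraries in each of the 6 groups. All 30 libraries came from punches taken 24 h after the social interaction test, each pooled 4 mice with similar interaction ratios, and no age is given in the labels. As the tag sits on Rpl22 in whichever cells have or had Cre, the RNA is that bound to tagged ribosomes plus whatever the pull-down carries along, and ribosomal protein mRNAs here are mRNAs found with ribosomes, not the proteins of those ribosomes.

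Gene counts per library ran from 40504633 to 65882152, apart from D1 Susceptible library 1 with 28996168, of which 1 transcript, Gm42418, took 54.9%. Levels are in CPM, counts relative to library size, after TMM scaling, which allows for such a transcript. A count of 0 allowed up to 0.0455 to 0.103 CPM of the total gene counts, before TMM scaling and for counting error only. After scaling, the floor of D1 Susceptible library 1 was higher than this. D2 Susceptible libraries 1 and 2 stood apart, with 15822 and 16525 genes detected against 19440 to 22375 in the other 28. In D2 Resilient library 5 the summed D1 markers were the highest and the summed D2 markers the lowest of its group. The markers of the labelled classes went with the labels. Of 7 D1 markers 5, 4 and 6 were higher in D1 in the Control, Resilient and Susceptible groups, and the 5 D2 markers tested were all lower there.

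Start-site sequences were compared first, because the oligopyrimidine start is the shared regulatory feature of this gene family. RefSeq promoter entries on GRCm38.p6 were found for 62 of the 82 genes. The window read was 30 bases on the gene's strand, from 20 before to 10 after the annotated start. Below, capitals mark the longest unbroken run of C and T in each window. The first 6 genes were lower in D1 than in D2 Control libraries, and the last 4 did not pass that test.
Rpl19: gggcttgggCTCTCCCCTTCgcagataatg
Rpl38: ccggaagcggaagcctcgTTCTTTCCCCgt
Rplp2: cccactgcgtcagcgTCTTCCTTTCgccgc
Rps21: gcacttaccgaggacccgCCCTCCTgccca
Rpl41: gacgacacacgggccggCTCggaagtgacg
Rps28: TCCTgggtaccgcgtgcggtctcgcgagag
Rpl4: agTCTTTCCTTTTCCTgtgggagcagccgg
Rps6: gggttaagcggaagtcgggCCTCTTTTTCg
Rplp0: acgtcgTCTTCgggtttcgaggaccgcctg
Rps4x: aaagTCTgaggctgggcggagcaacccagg
These windows lie, in the same order, with Rpl19 at chr11:98026904-98026933 on the plus strand, Rpl38 at chr11:114668560-114668589 on the plus strand, Rplp2 at chr7:141447631-141447660 on the plus strand, Rps21 at chr2:180257359-180257388 on the plus strand, Rpl41 at chr10:128549159-128549188 on the minus strand, Rps28 at chr17:33824553-33824582 on the minus strand, Rpl4 at chr9:64173367-64173396 on the plus strand, Rps6 at chr4:86857358-86857387 on the minus strand, Rplp0 at chr5:115559447-115559476 on the plus strand and Rps4x at chrX:102189382-102189411 on the minus strand.

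A run of 8 or more C or T bases stood in 26 of the 62 windows (41.9%), against 12.3% of the 11534 windows of other protein-coding genes tested. The run was searched on the gene's strand only. It was present in Rpl4, whose level barely differed between the classes, with 14 bases, and was only 3 bases long in Rpl41 and 4 in Rps28, both far lower in D1. Among genes lower in D1 Control libraries 11 of 23 windows (47.8%) held such a run, and among those that did not pass 15 of 38 (39.5%). The shares of the called and the other genes thus lay close together. A run was counted anywhere in the window, also wholly before the annotated start as in Rpl4, so it need not begin the mRNA. A window without a run says only that these letters are not in it, since annotated starts can lie some bases from the start used.

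Levels differed widely among the genes. Divided by the length of the principal transcript, the median was 144 CPM per kilobase for the large subunit and 180.3 for the small subunit. Rplp1, an acidic protein of the stalk that recruits translation factors, was the highest of all at 526 CPM per kilobase, and Rpl9 followed in the large subunit at 384. In the small subunit the highest were Rps14 at 418 and Rps15 at 329 CPM per kilobase. The lowest with any count were the paralogue Rpl39l at 0.179 and, in the small subunit, Rps10 at 0.772 and Rps20 at 16.0. The place of Rps20 rests on the transcript length used, 3706 bases. Before that division Rps20 was at 59.3 CPM, above Rps27l at 9.55 CPM.

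Some of these levels are uncertain because ribosomal protein genes have many near-identical copies. Of the 82 genes 59 had 291 rows named as their pseudogenes, which held 6.45% to 7.67% as many counts as the 82 genes in each library. For Rps10, at 0.685 CPM, the pseudogene rows held 3598% of the gene's own counts, and for Rpl17, at 8.39 CPM, 927%. The share was also large for some well-counted genes, such as 42.6% for Rpl38 and 24.7% for Rps12. Exons of other genes covered 66.2% of Rpl35, 62.3% of Rpl23a, 47.0% of Rpl24, which had only 0.467 CPM, and 35.4% of Rpl13a. The strand setting of the counting is not given in the sources used here. How far this moves the values of the genes named here was not tested.

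Summed over the 50 large subunit genes, D1 Control libraries held 5879 ± 277 CPM (SD, n = 5), D1 Resilient 6301 ± 454 and D1 Susceptible 5692 ± 341. The D2 groups held 7135 ± 547, 6481 ± 220.1 and 7401 ± 1121 CPM in the same order. For the 32 small subunit genes the D1 sums were 4109 ± 186, 4404 ± 453 and 3990.2 ± 300.4 CPM, and the D2 sums 4986 ± 561, 4491 ± 228 and 5192 ± 903 CPM. Both subunits moved side by side, the ratio of large to small sums being 1.43 or 1.44 on average in all 6 groups. Every D1 Control library lay below every D2 Control library in each subunit sum, while the Resilient groups and the Susceptible groups overlapped. The widest spread was in D2 Susceptible, whose 5 libraries held 14243, 14852, 10156, 12714 and 11001 CPM over both subunits. Libraries 1 and 2, which stand apart in genes detected, were the highest there and library 3 was the lowest. Reads outside genes took 11.1%, 10.4%, 5.38%, 7.87% and 6.13% of these 5 libraries' totals. In D2 Control they took 5.20%, 5.47%, 5.90%, 7.79% and 6.30%, the most in library 4, which was highest in both sums. In D1 Susceptible library 1 they took 41.2%, with the lowest sum over both subunits of its group. In D1 Control the most, 6.55%, was in library 1, not the highest in either sum. The part of such reads in the levels was not tested.

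**Figure D1:**
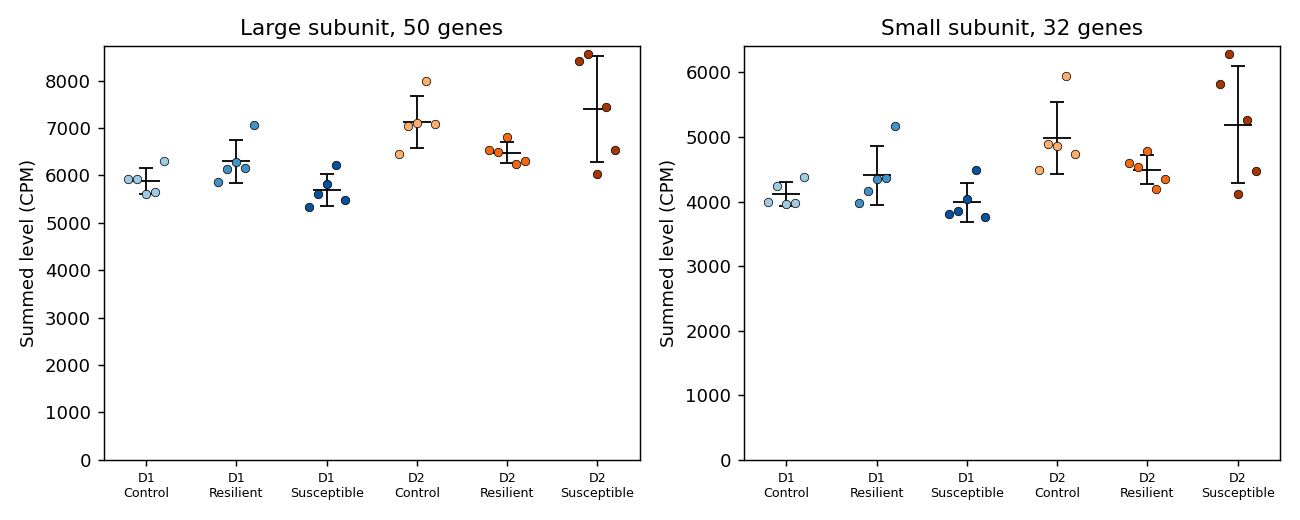
Summed level of the large subunit genes (left) and the small subunit genes (right) in CPM, with 1 point for each library, a horizontal line at the group mean and bars of 1 SD (n = 5). The D1 Control points all lie below the D2 Control points, the Resilient and Susceptible groups overlap, and D2 Susceptible spreads most.

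In Control mice, 32 ribosomal protein mRNAs were lower in the D1 than in the D2 libraries. By edgeR's quasi-likelihood test, at a Benjamini-Hochberg adjusted p below 0.05 over all genes tested, these were 32 of the 81 genes tested, with 0 higher, 19 of 49 for the large subunit and 13 of 32 for the small. Of all genes tested 8.3% were called in either direction and 4.8% were called lower. The median difference was -0.36 on the log2 scale for the large subunit and -0.32 for the small, against 0.00 for all genes tested. The called differences ran from -1.10 in Rps29 to -0.29, and 75 of the 81 genes lay below 0, as did 50.3% of all genes tested. In 25 genes, 15 large and 10 small, all 5 D1 libraries lay below all 5 D2 libraries, as they did in 6.05% of genes tested. The count fell to 16 without D2 Control library 4, the highest in both subunit sums, and to 18 without D1 Control library 3 or 4. With libraries scaled by total counts it was 6, and by limma voom it was 55.

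Among large subunit genes the clearest cases were Rpl38, Rpl19, Rpl41 and Rpl23a. Rpl38 (chr11:114668524-114672331, GRCm38), a small protein known from a mouse mutant with skeletal patterning defects, was 47.5, 40.5, 45.0, 41.3 and 52.7 CPM in the D1 libraries and 65.5, 73.9, 75.2, 96.0 and 74.5 CPM in the D2 libraries. Its groups did not overlap, and the log2 difference was -0.76 (SE 0.140, adjusted p = 0.000419), with the pseudogene limit given above. Rpl19 (chr11:98026710-98030492), which forms a bridge to the small subunit, was 92.9, 79.4, 86.9, 78.8 and 90.4 in D1 and 106, 131, 127, 130.5 and 157 CPM in D2. All 5 D2 libraries lay above all D1 libraries, with D2 library 5 the highest, and the log2 difference was -0.61 (SE 0.103, adjusted p = 0.000168). Rpl41 (chr10:128548114-128549305), the shortest ribosomal protein, was 108, 82.3, 84.1, 80.4 and 87.6 in D1 and 125, 156, 129, 246 and 185 CPM in D2. The groups did not overlap, the log2 difference of Rpl41 was -0.93 (SE 0.184, adjusted p = 0.00114), and D1 library 1 was the one farthest from its group. Rpl23a, at the mouth of the exit tunnel, was 39.4 ± 1.51 in D1 and 53.0 ± 3.62 CPM in D2 (SD, n = 5), with a log2 difference of -0.43 (SE 0.0761, adjusted p = 0.000316), with the overlap limit given above.

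In the small subunit Rps29 had the largest difference of the called genes. Rps29 (chr12:69157722-69159186), a zinc-binding protein mutated in some patients with Diamond-Blackfan anaemia, was 44.5, 38.4, 35.2, 40.2 and 50.4 in D1 and 71.2, 89.1, 94.2, 111 and 81.7 CPM in D2. The highest D1 library lay below the lowest D2 library, and the log2 difference was -1.10 (SE 0.164, adjusted p = 3.2e-05). Rps28 (chr17:33819027-33824562), near the path of the messenger, was 31.1, 30.4, 26.3, 24.6 and 28.2 in D1 and 42.4, 51.1, 55.1, 69.2 and 40.8 CPM in D2, the log2 difference being -0.88 (SE 0.144, adjusted p = 0.000106). The Rps28 groups did not overlap, with D2 library 4 again the highest. Rps12 was 26.4 ± 3.64 in D1 and 41.7 ± 6.41 CPM in D2 (SD, n = 5), with a log2 difference of -0.66 (SE 0.130, adjusted p = 0.00101). Rps15, a protein of the subunit's head, was 137 ± 15.1 and 188 ± 15.5 CPM, with a log2 difference of -0.46 (SE 0.0874, adjusted p = 0.000604). Rps12 groups did not overlap and Rps15 groups did not overlap between the classes. The called small subunit genes also held Rps14, Rps16, Rps18, Rps20, Rps21, Rps23, Rps26 and Rps27.

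**Figure D2:**
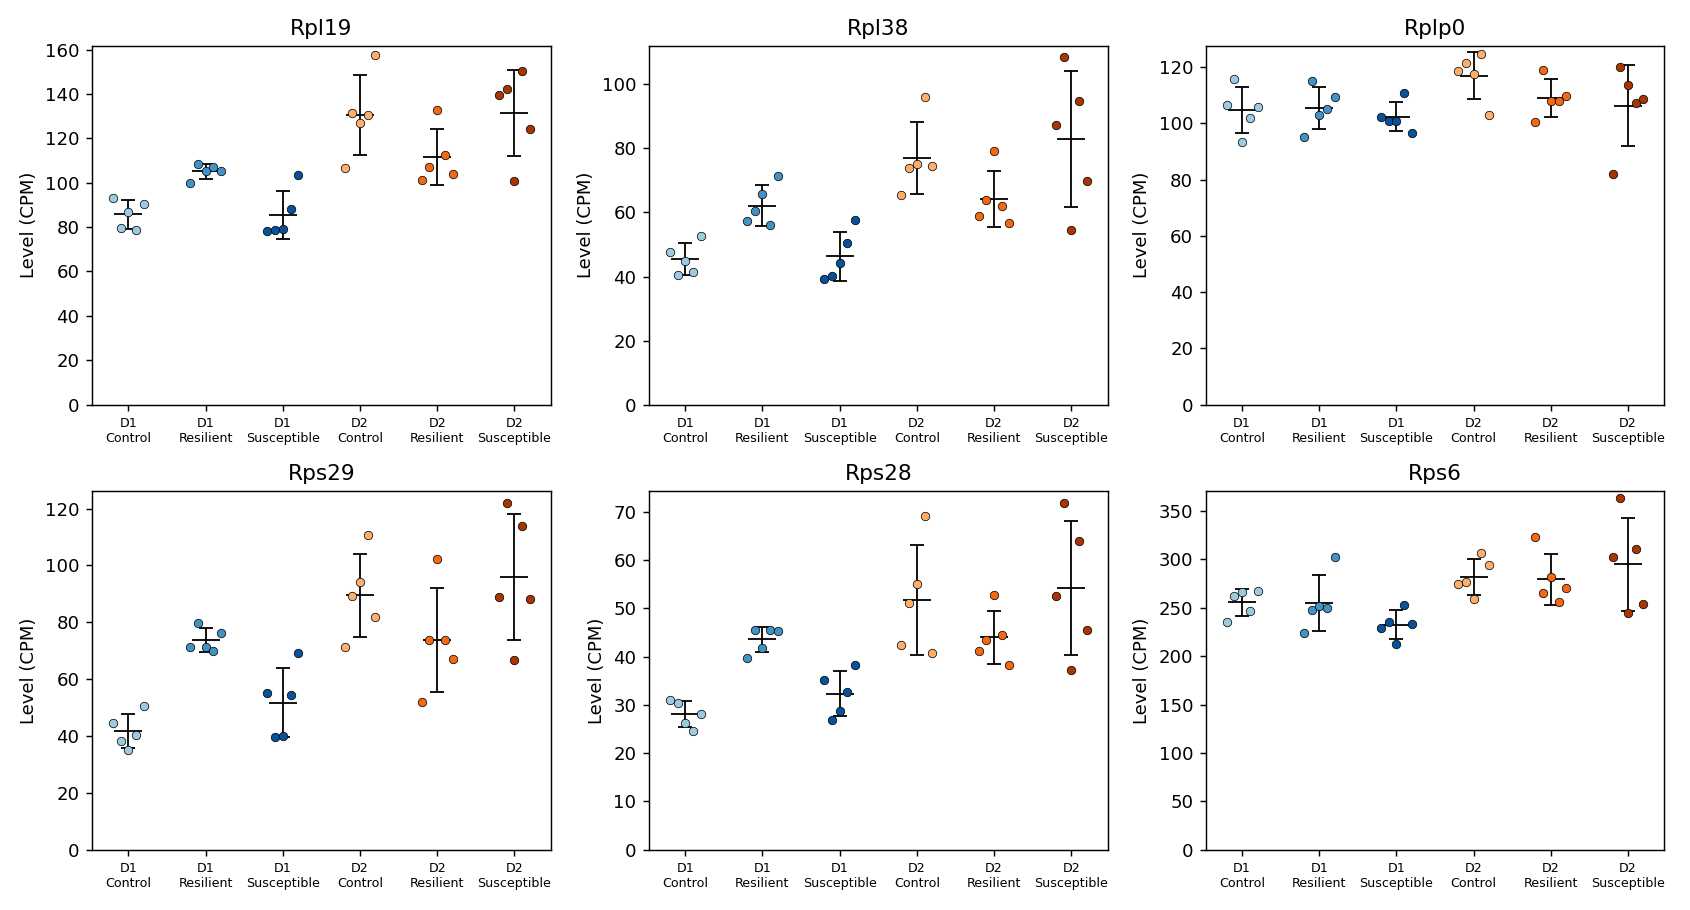
Level in CPM of 6 ribosomal protein genes, with 1 point for each library, a line at the group mean and bars of 1 SD (n = 5). Rpl19, Rpl38, Rps29 and Rps28 are low in D1 Control and high in D2 Control libraries, Rplp0 differs little over the 6 groups, and Rps6 has its lowest mean in D1 Susceptible and its highest in D2 Susceptible libraries.

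Of the 3 stalk genes Rplp1 and Rplp2 were called lower in D1 Control libraries and Rplp0 was not. Rplp2 was 92.1, 93.1, 79.4, 78.6 and 91.4 in D1 and 121, 122, 129.8, 192 and 126 CPM in D2 Control libraries. Every D2 library of Rplp2 lay above every D1 library, and the log2 difference was -0.67 (SE 0.138, adjusted p = 0.00153). For its partner Rplp1 the log2 difference was -0.50 (SE 0.141, adjusted p = 0.0207), a call that was lost without D1 Control library 3, 4 or 5 or D2 Control library 4. Rplp0, the scaffold of the stalk, was 106, 116, 93.5, 102 and 106 in D1 and 119, 121, 117, 125 and 103 CPM in D2. Its libraries overlapped between the classes, and its log2 difference was -0.16 (SE 0.0833, adjusted p = 0.29). Whether Rplp0 differed from Rplp2 in this respect was not tested.

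Other genes of known special roles did not pass in Control mice. Rps6, the target of the S6 kinases downstream of mTOR, was 235, 263, 266, 247 and 267 in D1 and 275, 277, 259, 307 and 294 CPM in D2. Its libraries overlapped, and the log2 difference was -0.14 (SE 0.0921, adjusted p = 0.442). Values were -0.19 (SE 0.0920, adjusted p = 0.25) for Rpsa, also known as the laminin receptor, -0.036 (SE 0.0843, adjusted p = 0.897) for the X-linked Rps4x and -0.15 (SE 0.0828, adjusted p = 0.317) for Rpl10, which joins the large subunit late. Rpl9, the highest large subunit gene but one per length, was at -0.22 (SE 0.137, adjusted p = 0.418). The direction of Rps4x turned without D1 Control library 1 (0.04), and that of Rps10, at -0.024 (SE 0.726, adjusted p = 0.993), turned without any 1 of 5 libraries. Rps14 (-0.40, SE 0.114, adjusted p = 0.0219) and Rps20 (-0.39, SE 0.123, adjusted p = 0.0422) were called lower in D1, and lost the call without D1 Control library 1, 3 or 4 or D2 Control library 4, Rps20 also without D1 Control library 2 or D2 Control library 2, 3 or 5.

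Of the paralogues named with the letter l, Rpl3l, Rpl39l and Rpl10l were near or at the floor and the others were not. Rpl3l, the form of Rpl3 in muscle, was 0.294 ± 0.191 in D1 and 0.466 ± 0.228 in D2 Control libraries, and Rpl39l, known from testis, was 0.0395 ± 0.0564 and 0.0957 ± 0.130 CPM. Rpl10l, another testis form, had no count, which allows up to 3 counts a library. Rps27l, a p53-responsive copy of Rps27, was 7.56 ± 2.01 in D1 and 11.0 ± 1.33 CPM in D2 (SD, n = 5), with a log2 difference of -0.54 (SE 0.179, adjusted p = 0.0579). Rpl7l1, at a mean of 46.8 CPM over all libraries, had a log2 difference of 0.19 (SE 0.111, adjusted p = 0.355) and Rpl22l1, the paralogue of the tagged gene, at a mean of 103.5 CPM, one of -0.13 (SE 0.209, adjusted p = 0.83). Rpl22 itself was 60.0 ± 2.73 in D1 and 67.2 ± 8.16 CPM in D2, the log2 difference being -0.16 (SE 0.122, adjusted p = 0.538). Its counts cannot separate tagged from untagged transcripts, so they do not check the tag.

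In Resilient mice no difference between the classes was detected for these genes. By edgeR 0 of the 81 genes were called, against 6.65% of all genes tested, and 1 was lower at an unadjusted p below 0.05 against 8.03%. DESeq2 also called 0, limma voom called 1, Rpl24, and edgeR called 0 with any 1 library of these groups left out. The median log2 difference was -0.03 in each subunit. Rps29 was 71.3, 79.9, 71.5, 69.9 and 76.2 in D1 and 52.0, 73.7, 102, 73.7 and 67.1 CPM in D2, the log2 difference being 0.00069 (SE 0.162, adjusted p = 0.999). Rpl38 was 57.3, 60.3, 65.8, 56.1 and 71.3 in D1 and 58.9, 64.0, 79.3, 62.1 and 56.9 CPM in D2, the log2 difference being -0.047 (SE 0.139, adjusted p = 0.969). In both genes the D1 and D2 libraries overlapped. All 5 D1 Resilient libraries stood above all 5 D1 Control libraries, and 4 of the 5 D2 Resilient libraries stood below the D2 Control mean. The smallest p values were those of Rpl24, at -1.73 (SE 0.839, adjusted p = 0.318), and Rps6, at -0.13 (SE 0.0921, adjusted p = 0.624).

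In Susceptible mice the D1 libraries again held less. By edgeR 57 of the 81 genes were lower in D1 and 0 were higher, 35 of 49 large and 22 of 32 small, where 23.9% of all genes tested were called and 13.4% were called lower. The median log2 difference was -0.47 for the large subunit and -0.36 for the small, against 0.02 for all genes tested. Called differences ran from -2.59 in the scarcely counted Rpl24 to -0.26. All D1 libraries lay below all D2 libraries in 10 genes, against 4.12% of genes tested. Without D2 Susceptible libraries 1 and 2 the count was 13 and the median over both subunits -0.23, and with only the D1 and D2 Susceptible libraries in the fit the count was 14. These 2 libraries were the 2 highest of all 15 D2 libraries in 26 of the 81 genes (32.1%), against 11.97% of all genes tested. Without D1 Susceptible library 1 the count was 50.

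Rpl19 was 78.2, 78.5, 79.3, 88.0 and 103 in D1 and 139, 142, 101, 151 and 124 CPM in D2 Susceptible libraries, with a log2 difference of -0.62 (SE 0.103, adjusted p = 7.92e-05). Rpl38 was 39.3, 40.2, 44.1, 50.4 and 57.6 in D1 and 87.2, 109, 54.6, 94.8 and 69.8 CPM in D2, the log2 difference being -0.84 (SE 0.140, adjusted p = 8.09e-05). In both genes D2 library 3 was the lowest of its group and lay below the highest D1 library. Rpl35a, mutated in some Diamond-Blackfan patients, had a log2 difference of -0.78 (SE 0.131, adjusted p = 8.22e-05), and Rpl23, which can bind the p53 regulator Mdm2, of -0.72 (SE 0.133, adjusted p = 0.000255). Without D2 libraries 1 and 2 these were -0.53 (adjusted p = 0.00158) for Rpl19, -0.63 (adjusted p = 0.00285) for Rpl38, -0.46 (adjusted p = 0.00513) for Rpl35a and -0.35 (adjusted p = 0.0204) for Rpl23. All 4 thus kept their call when the 2 libraries were left out.

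In the small subunit Rps29 was 55.0, 39.8, 40.2, 54.3 and 69.1 in D1 and 89.0, 122, 66.9, 114 and 88.2 CPM in D2 Susceptible libraries, with a log2 difference of -0.89 (SE 0.163, adjusted p = 0.000246). Rps28 was 35.1, 27.0, 28.8, 32.7 and 38.2 in D1 and 52.6, 71.9, 37.3, 63.9 and 45.5 CPM in D2, the log2 difference being -0.75 (SE 0.144, adjusted p = 0.00044). In both genes D2 library 3 lay below the highest D1 library, so the groups overlapped by 1 library on each side. Rps27, a zinc-finger protein, was at -0.64 (SE 0.131, adjusted p = 0.000812) and Rps21 at -0.87 (SE 0.174, adjusted p = 0.000665). Without D2 libraries 1 and 2, Rps29 was at -0.77 (adjusted p = 0.00645), Rps28 at -0.58 (adjusted p = 0.0089) and Rps27 at -0.36 (adjusted p = 0.0463), while Rps21, at -0.48 (adjusted p = 0.0564), lost its call. Rps6 (-0.34, SE 0.0923, adjusted p = 0.00794), Rpl22l1 (-0.75, SE 0.211, adjusted p = 0.011) and Rps27l (-0.68, SE 0.180, adjusted p = 0.00688) were called lower in Susceptible mice, calls that were lost without D2 libraries 1 and 2 and with only these groups in the fit. Rplp0 (-0.055, SE 0.0834, adjusted p = 0.674) was not, and the tagged Rpl22 was at -0.33 (SE 0.122, adjusted p = 0.0448). Rplp2 was at -0.71 (SE 0.138, adjusted p = 0.000529) and Rplp1 at -0.66 (SE 0.141, adjusted p = 0.00126). Of these 2 calls that of Rplp1 was lost in the same refits and that of Rplp2 was not.

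**Figure D3:**
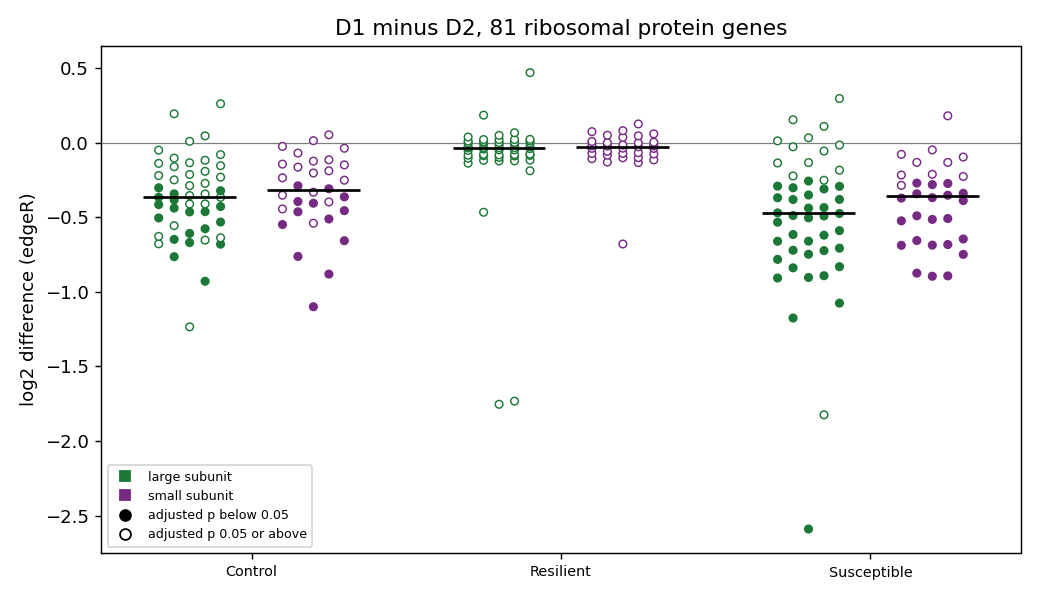
Log2 difference between D1 and D2 libraries for the 81 ribosomal protein genes tested, by group and subunit, with 1 point for each gene (filled where the edgeR adjusted p is below 0.05) and a line at the median. Medians lie near -0.36 and -0.32 in Control, at -0.03 in Resilient, and at -0.47 and -0.36 in Susceptible libraries.

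The Control and Susceptible calls come from different libraries and can be set side by side. They shared 29 genes, which is 90.6% of the Control calls and 50.9% of the Susceptible calls. Of all 81 genes 39.5% were called in Control and 70.4% in Susceptible mice. The overlap over all genes tested was not counted. Rpl18 and Rps14 were among those that passed in Control and not in Susceptible mice, and 21 of the 81 genes passed in neither. Rpl38, Rpl41, Rplp2, Rps12, Rps28 and Rps29 kept their call in Control mice under every alternative fitted for that comparison. In Susceptible mice 10 genes did so, namely Rpl19, Rpl23, Rpl35, Rpl35a, Rpl37a, Rpl38, Rplp2, Rps27, Rps28 and Rps29. Rpl38, Rplp2, Rps28 and Rps29 are in both of these lists.

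Calls were more frequent among genes with short coding sequences. In Control mice 8 of the 11 ribosomal protein genes with a coding sequence of at most 300 bases were lower in D1 (median log2 difference -0.76), 16 of 27 with 300 to 450 bases (-0.37), 6 of 19 with 450 to 600 (-0.36), 2 of 20 with 600 to 900 (-0.15) and 0 of 4 with 900 to 1500 (-0.15). In Susceptible mice the counts in the same order were 10 of 11, 25 of 27, 14 of 19, 8 of 20 and 0 of 4. Among other protein-coding genes the shares lower in D1 also fell with length, from 18.5% to 11.1%, 8.84%, 5.64% and 5.46% in Control mice and from 34.7% to 25.2%, 22.1%, 16.0% and 12.9% in Susceptible mice. Spearman's rho between coding length and the log2 difference, over the 81 genes and as a description, was 0.65 in Control, 0.59 in Susceptible and -0.19 in Resilient mice. Over 14865 other protein-coding genes rho was 0.18, 0.15 and 0.01 in the same order, and those of at most 300 bases had a median log2 difference of -0.28 in Control mice, with 57 of 308 lower in D1. Within that shortest class the median of the 11 ribosomal protein genes was thus below that of the others. Within the classes, rho over the 81 genes was -0.67 in D1 Resilient against Control and 0.64 in D1 Susceptible against Resilient. In D2 it was 0.39 for Resilient against Control and -0.45 for Susceptible against Resilient. Over the other protein-coding genes these were -0.16, 0.29, 0.16 and -0.08. Susceptible against Control gave -0.26 over the 81 genes in both classes. The genes of these correlations share their libraries, and the part of transcript length in the class and stress differences was not tested.

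**Figure D4:**
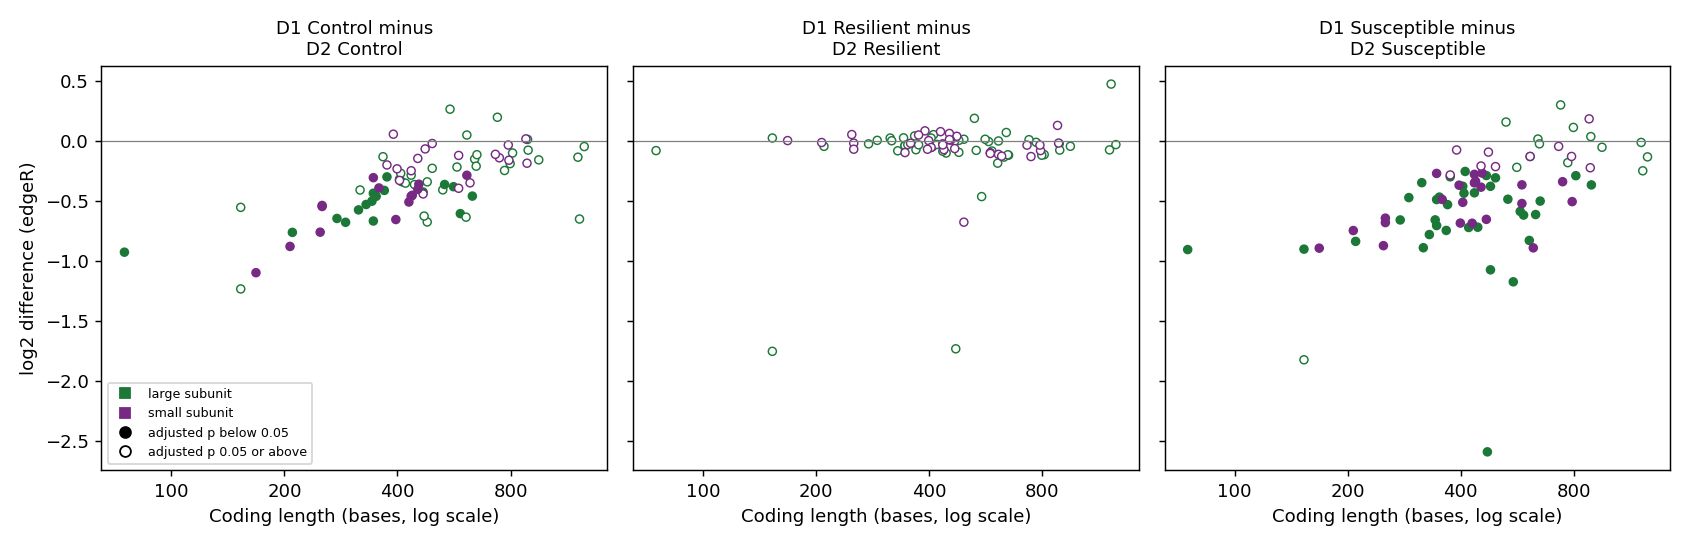
Log2 difference between D1 and D2 libraries against coding length in bases (log scale) for the 81 genes tested, in Control (left), Resilient (middle) and Susceptible mice (right), filled where the edgeR adjusted p is below 0.05. Shorter genes tend to lie lower in Control and Susceptible mice, with Spearman's rho of 0.65 and 0.59, and rho is -0.19 in Resilient mice.

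Within D1 ribosomes the stress groups gave no call. By edgeR 0 of 81 genes passed in each of the 3 comparisons, where 0% of all genes tested passed, and 0 with any 1 library left out. The comparisons share groups. Between Resilient and Control libraries, 17 genes were higher and 1 was lower at an unadjusted p below 0.05, against 1.08% and 1.51% of all genes tested, and the median log2 difference was 0.12. DESeq2 called 1 gene there and limma voom 12, all higher in Resilient. Rps29 was 44.5, 38.4, 35.2, 40.2 and 50.4 CPM in Control and 71.3, 79.9, 71.5, 69.9 and 76.2 CPM in Resilient libraries, and the groups did not overlap. Its log2 difference was 0.82 (SE 0.163, adjusted p = 0.388), and that of Rpl38 was 0.45 (SE 0.139, adjusted p = 1). Between Susceptible and Resilient libraries 21 genes were lower at an unadjusted p below 0.05, against 1.28% of all genes, with a median of -0.16. DESeq2 called 0 and limma voom 2. Rpl38 was at -0.42 (SE 0.140, adjusted p = 0.856) and Rps29 at -0.51 (SE 0.163, adjusted p = 0.856). Between Susceptible and Control libraries the median was -0.02, 1 gene was higher and 1 lower at an unadjusted p below 0.05 against 1.41% and 0.991% of all genes, and DESeq2 and limma voom called 0. Rpl17 was at -0.85 (SE 0.401, adjusted p = 1) and Rps15 at 0.18 (SE 0.0873, adjusted p = 1).

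Within D2 ribosomes 0 of 81 genes passed in each comparison by edgeR as well. Of all genes tested 0% passed between Resilient and Control, 0.0516% between Susceptible and Resilient, and 0.00516% between Susceptible and Control. Between Resilient and Control libraries the median log2 difference was -0.16 and 16 genes were lower at an unadjusted p below 0.05, against 2.58% of all genes, with 0 called by DESeq2 or limma voom. Rpl18 was at -0.28 (SE 0.103, adjusted p = 1) and Rps15 at -0.23 (SE 0.0872, adjusted p = 1). Between Susceptible and Resilient libraries the median was 0.22, and 33 genes were higher and 2 lower at an unadjusted p below 0.05, against 10.8% and 8.26% of all genes. DESeq2 called 8 there and limma voom 0. The edgeR count rose from 0 to 26 without D2 Susceptible library 3 and to 18 without library 5, and the median fell to 0.06 without libraries 1 and 2. Rps21 was 91.9, 110.3, 130.1, 86.6 and 87.8 CPM in Resilient and 193, 213, 89.5, 151 and 112 CPM in Susceptible libraries, which overlapped. Its log2 difference was 0.58 (SE 0.173, adjusted p = 0.0859), and that of Rpl27a was 0.54 (SE 0.153, adjusted p = 0.078). Between Susceptible and Control libraries the median was 0.06, with 8 genes higher and 6 lower at an unadjusted p below 0.05 against 8.68% and 7% of all genes, and 0 called by DESeq2 or limma voom. Without D2 Susceptible library 3 the edgeR count there was 3. Rpl10 was at -0.26 (SE 0.0828, adjusted p = 0.175).

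The difference of the class gap between stress groups was itself tested, as the change in D1 minus the change in D2. By edgeR 0 of 81 genes passed in any of the 3 interaction terms, as did 0% of all genes tested, so no gene was shown to have a class gap that differed between groups. For Resilient against Control, 31 genes had a higher D1 change at an unadjusted p below 0.05, against 3.15% of all genes, and the median term was 0.27 on the log2 scale. DESeq2 called 1 and limma voom 12. Rps29 was at 1.10 (SE 0.229, adjusted p = 0.594) and Rpl23a at 0.42 (SE 0.108, adjusted p = 0.621). For Susceptible against Resilient, 43 genes had a lower D1 change at an unadjusted p below 0.05, against 8.06% of all genes, with a median of -0.38. DESeq2 and limma voom called 0, and edgeR called 12 without D2 Susceptible library 3. The median there was -0.22 without D2 Susceptible libraries 1 and 2. Rpl38 was at -0.79 (SE 0.197, adjusted p = 0.21) and Rps29 at -0.90 (SE 0.229, adjusted p = 0.213). For Susceptible against Control the median was -0.09, 3 genes were lower at an unadjusted p below 0.05 against 4.79% of all genes, and DESeq2 and limma voom called 0. Rpl17 was at -1.44 (SE 0.563, adjusted p = 0.637) and Rps24 at -0.45 (SE 0.255, adjusted p = 0.659). Spearman's rho between coding length and the term, over the 81 genes, was -0.60 for Resilient against Control. It was 0.56 for Susceptible against Resilient and 0.08 for Susceptible against Control. Over the other protein-coding genes rho was -0.20, 0.19 and 0.05 in the same order. The part of length in these terms was not tested.

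**Figure D5:**
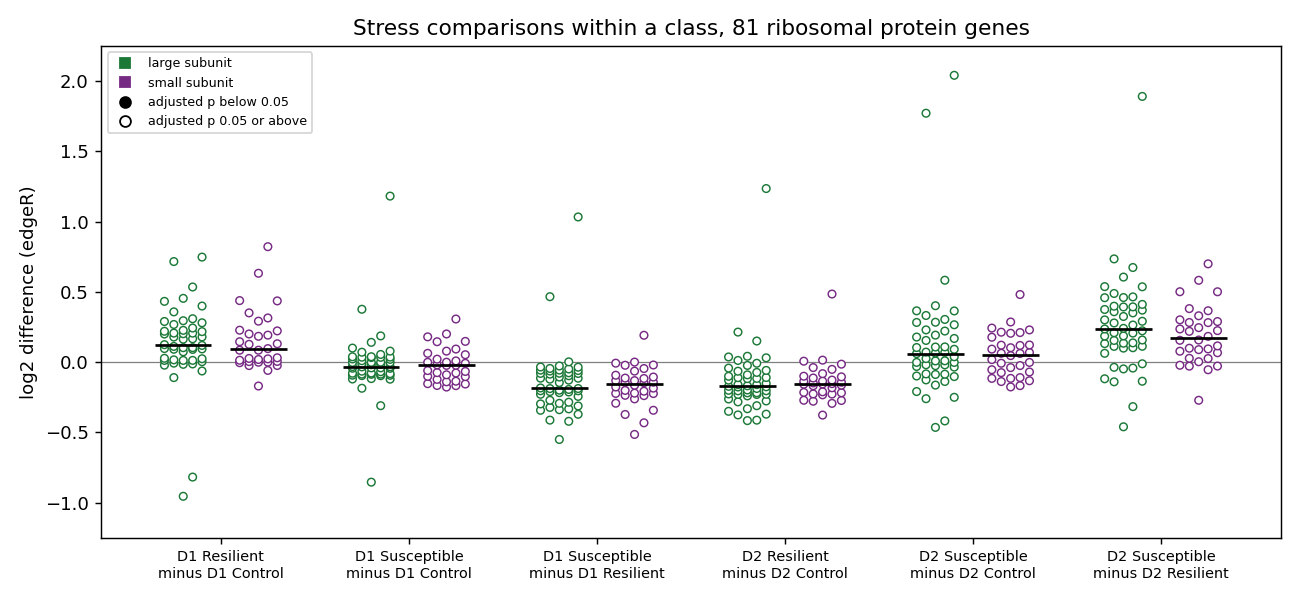
Log2 difference between stress groups within D1 or D2 libraries for the 81 genes tested, by subunit, with 1 point for each gene and a line at the median. No gene has an edgeR adjusted p below 0.05, and medians over both subunits run from -0.16 in D1 Susceptible against Resilient and D2 Resilient against Control to 0.22 in D2 Susceptible against Resilient.

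Some ribosomal protein genes have names the rule does not take. Fau, which encodes Rps30 fused to a ubiquitin-like part, was 134 ± 18.6 in D1 and 183 ± 24.2 CPM in D2 Control libraries (SD, n = 5), with a log2 difference of -0.45 (SE 0.115, adjusted p = 0.0115). It was at -0.00019 (SE 0.115, adjusted p = 1) in Resilient and -0.45 (SE 0.115, adjusted p = 0.00575) in Susceptible mice. Rack1 and Rpl36al did not pass in any group. Of 16 other mRNAs known for oligopyrimidine starts, mostly translation factors, 0 passed in Control and Resilient mice. In Susceptible mice Btf3, Pabpc1, Eef1b2, Tpt1 and Naca were lower and Eif3f and Eef2 were higher in D1. Of 22 ribosome biogenesis genes 1 was higher and 1 lower in Control mice, 0 in Resilient, and 3 and 4 in Susceptible mice. All genes tested were called at 8.3%, 6.65% and 23.9% in the same order, so the biogenesis counts lay near the background in Control and Susceptible mice. Of 12 genes of mTOR control, the kinase pathway that acts on these mRNAs, Rheb was higher in D1 in Control mice at 0.30 (SE 0.0742, adjusted p = 0.00859). 0 of the 12 passed in Resilient mice, and in Susceptible mice Rheb, Tsc2, Rptor and Mtor were higher and Larp1 was lower in D1. The median log2 difference of the 16 oligopyrimidine mRNAs in Control mice was -0.02, against -0.35 for the 81 ribosomal protein genes.

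Markers of some other cell types also differed between the classes, most of those called being lower in D1 and interneuron markers being higher. All 5 endothelial markers were lower in D1 in each stress group, with summed levels of 18.9 ± 5.93 against 205 ± 59.8 CPM in Control, 15.3 ± 1.49 against 157 ± 56.2 in Resilient and 25.8 ± 8.11 against 234 ± 51.6 in Susceptible mice (SD, n = 5). Of 5 astrocyte markers 3, 5 and 4 were lower in D1, with sums of 56.3 ± 44.6 against 129 ± 20.6, 30.5 ± 2.64 against 145 ± 52.2 and 51.0 ± 21.7 against 131 ± 7.01 CPM. Of 6 oligodendrocyte markers 0, 2 and 4 were lower, of 5 microglia markers 0, 2 and 0, and of 4 ependymal and choroid markers 0, 1 and 0. Of 6 interneuron markers 4, 4 and 5 were higher in D1. No marker was at 0 in any group. The part of these cells in the Control and Susceptible differences was not tested. In such pooled pull-downs, the number of tagged cells of a type, RNA carried along from untagged cells and RNA per cell cannot be told apart.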

How the data were processed

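The deposited files hold raw counts per gene for 30 libraries, made by the authors with HISAT2 and HTSeq on GRCm38 (mm10), per the submitters' processing notes. Neither tool versions nor the annotation release and strand of the counting are stated there. Groups came from the sample titles. Reads outside genes or otherwise unassigned (10.1% to 53.3% of a library's total) stayed out of library sizes. Symbols, biotypes, coordinates and lengths came from GENCODE M21 on GRCm38. Genes were kept by filterByExpr (minimum count 10, minimum total 15), TMM-scaled and put through the quasi-likelihood test of edgeR 4.0.16 (R 4.3.3; robust, 1 model of 6 groups), with Benjamini-Hochberg adjustment over 19368 genes in each of 12 comparisons. Variation between libraries had a common dispersion of 0.172. The test was tried on simulated data.

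Alternatives were DESeq2 1.42.0, its size factors in edgeR, total count scaling, no filter, only the groups compared, a replicate block, limma 3.58.1 (voom with sample weights), leaving out each library, and leaving out 2 or 4 libraries that stood apart. Counts between replicates differed beyond sampling noise in all 60 pairs (chi-square per degree of freedom 12.8 at least), so none was counted as a copy. The genes, lists and tests were chosen with earlier results of these data known. Named were up to 4 called genes of each subunit with the smallest adjusted p, the gene of each subunit with the smallest p where none was called, 13 genes of known roles, the 2 highest and 2 lowest of each subunit per length, and Rpl22. Other genes are named where a list or limit is given in full. The sixth D2 marker is not analysed here, and single values of some genes the rule takes are not reported here.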

Additional observations from a re-analysis of the deposited data

Results flagged for a closer look

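In a group of 5 libraries, a library was picked out where its gap to the nearest other exceeded 0.71 of the group's range. This was so for 16 of 210 gene and group sets of the named genes and subunit sums, and chance flags about 1 set in 20. Library 4 of D2 Control was high in 6 of them. It held 5949.9 CPM (nearest other 4889) over the small subunit genes, 416 CPM (nearest other 288) of Rplp1, 192 CPM (nearest other 129.8) of Rplp2, 165 CPM (nearest other 124) of Rpl18, 166 CPM (nearest other 125) of Rpl35a and 366 CPM (nearest other 285) of Rps14. Library 5 of D1 Resilient was high in 3, with 10.8 CPM (nearest other 5.15) of Rpl17, 324 CPM (nearest other 266) of Rpl9 and 129 CPM (nearest other 103) of Rps21. Single high values were 108 CPM (nearest other 87.6) of Rpl41 in D1 Control library 1, 60.3 CPM (nearest other 50.9) of Rps20 in D1 Control library 5 and 64.6 CPM (nearest other 58.0) of Rps20 in D2 Resilient library 1. Rpl39l, near the floor, stood out at 0.136 CPM (nearest other 0.0369) in D1 Control library 2, 0.207 CPM (nearest other 0.0554) in D1 Resilient library 3, 0.315 CPM (nearest other 0.0905) in D2 Control library 5 and 1.39 CPM (nearest other 0.147) in D2 Susceptible library 2.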

How the results depend on the processing

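Both class gaps kept their direction under every alternative fitted, and their size did not. Counts of genes called moved most. Control against Control gave 6 with total count scaling, 55 with limma voom, and 16 to 33 when 1 library was left out. Susceptible against Susceptible gave 14 with only these groups fitted, 33 with limma voom, 13 without D2 Susceptible libraries 1 and 2, 13 without these, D1 Susceptible library 1 and D2 Resilient library 5, and 38 to 60 when 1 library was left out. Limma voom gave 1 call in Resilient mice. D1 Resilient against Control gave 1 call with DESeq2, 2 with only these groups fitted and 12 with limma voom, and so did its interaction with D2 (1, 2 and 12). D1 Susceptible against Resilient gave 2 with limma voom, and D2 Susceptible against Resilient gave 8 with DESeq2. When 1 library was left out, the calls were 0 to 26 for D2 Susceptible against Resilient, 0 to 3 for D2 Susceptible against Control and 0 to 12 for the interaction of Susceptible against Resilient.

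Total count scaling moved the all-gene median by -0.22 in D1 Susceptible against Control, and by similar amounts in the other comparisons with the D1 Susceptible group. The ribosomal protein median with it was -0.24 there, -0.38 against D1 Resilient, -0.60 between the Susceptible classes (all genes -0.16), and -0.24 and -0.52 in the interactions of Susceptible with Control and Resilient. Summed levels with it were 8743 CPM in D1 Susceptible and 11588 CPM in D2 Resilient libraries. With limma voom the median was -0.087 in D2 Susceptible against Control, 0.020 against Resilient and -0.14 in the interaction of Susceptible against Resilient. Without D2 Susceptible libraries 1 and 2 it was -0.10 in D2 Susceptible against Control, 0.059 against Resilient, -0.23 between the Susceptible classes, and 0.069 and -0.22 in the interactions with Control and Resilient. Without the 4 libraries it was -0.10, 0.034, -0.25, 0.085 and -0.17 in the same order. The cause was not tested.

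Of 981 refits of 52 results for named genes 919 kept direction and side of the threshold, 26 lost a call, 25 gained one and 11 turned. Those that turned were Rps15 in D1 Susceptible against Control with total counts (-0.031) and Rps24 in the interaction of Susceptible against Control without 2 or 4 libraries (0.031 and 0.035). In Control mice Rpl22l1 turned with limma voom (0.018), Rps4x without D1 library 1 (range over libraries left out -0.060 to 0.035), and Rps10 with limma voom (0.36) and without D1 library 1 or 5 or D2 library 3, 4 or 5 (range -0.19 to 0.26).

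Replicate numbers did not pair libraries. Same-numbered libraries deviated together with r from -0.168 to 0.0779 over 75 pairs, 0 of them above 0.1. With the replicate number as a block the counts were 31 in Control and 56 in Susceptible class comparisons and 0 in the other 10. At this depth, genes under the counting floor of 0.0455 to 0.103 CPM a library, given before TMM scaling, cannot be compared. After scaling the floor of D1 Susceptible library 1 was higher.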
